A study of Rattus norvegicus with 20 samples.

Results

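Hyaluronan genes were followed in the inguinal white adipose tissue (iWAT, the subcutaneous fat of the groin) of ZSF1 rats. The 10 genes were taken by symbol and cover the 3 hyaluronan synthases (Has1, Has2, Has3), 3 hyaluronidases (Hyal1, Hyal2, Hyal3), the receptors Cd44 and Hmmr, the matrix proteoglycan versican (Vcan) and the hyaluronan-modifying protein Tnfaip6. All 10 have a row in the table of 32545 genes, and all 10 had reads in each of the 20 libraries. Poly(A) RNA of 5 male rats per group was sequenced by bulk RNA-seq, 1 library per rat.

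Lean rats come from the ZSF1 cross but are not homozygous for leptin receptor deficiency and eat normally. The Obese, Food matched and Cmpd 1 groups were all obese ZSF1 rats, which carry a defective leptin receptor gene (the fa and cp alleles of Lepr) on both chromosomes, overeat and become diabetic. All groups were of like adult age and ate Purina 5008, a chow rich in carbohydrate. The Lean and Obese groups had it freely and without drug. Cmpd 1 is an oral inhibitor of the kinases PKCα and PKCβ that was mixed into the chow for several weeks. By the study's text it lowered food intake at first, and intake came back near that of the Obese group by the end. The Food matched group was therefore given each week about as much plain chow as the Cmpd 1 group had eaten in the week before. This matches intake only approximately and with a lag. The mutation is present in every cell of the body, so no comparison here separates fat from the brain or other organs. Each rat gave 1 piece of whole depot, in which fewer cells of a type and less RNA per cell cannot be told apart.

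Hyaluronan is a long, unbranched sugar chain of the extracellular matrix. Synthases in the plasma membrane spin it out from the nucleotide sugars UDP-glucuronic acid and UDP-N-acetylglucosamine, hyaluronidases cut it, and cells take it up or crawl on it through receptors, of which Cd44 is the best known. Versican binds the chain and holds it in a loose, hydrated matrix, and Tnfaip6 (TSG-6), a protein made in inflammation, moves the heavy chains of inter-alpha-trypsin inhibitor onto it. In fat depots such a matrix is found around preadipocytes and in places where leukocytes gather.

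In iWAT of Obese rats the mRNAs of Cd44, Hmmr, Vcan, Has1 and Tnfaip6 were higher than in Lean rats, and that of Has3 was lower. Cd44, Hmmr and Vcan were lower in Cmpd 1 than in Food matched animals. Has3 just missed the test between these last groups (adjusted p = 0.055), and the hyaluronidase mRNAs stayed within 1.5-fold in every comparison. Thus 6 of the 10 genes were differentially expressed genes (DEGs) in Obese versus Lean, where 22.3% of the 17653 genes tested were, and 3 of the 10 in Cmpd 1 versus Food matched, where 6.19% were. Here a DEG is a gene that edgeR's quasi-likelihood fit placed more than 1.5-fold apart at an adjusted p (Benjamini-Hochberg, all genes tested) below 0.05. Of the 6, 5 were higher (beside 11.3% of genes tested) and 1 lower (beside 11%), and all 3 of the second comparison were lower (beside 4.65%). At any fold, 7 of the 10 passed the test in the first comparison (beside 48.2%) and 3 in the second (beside 22.8%). The median log2 fold change of the 10 genes was 0.50 in Obese versus Lean, beside -0.014 over all genes tested, and -0.22 in Cmpd 1 versus Food matched, beside 0.0058.

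Libraries held between 31716457 and 74784655 counted reads, and the 10 genes had between 34 reads (Has3 in a Food matched rat) and 19578 reads (Cd44) per library. Levels are given as CPM, a gene's reads relative to the library size after TMM scaling, and between genes as RPKM, which also divides by gene length. Lepr was at 2.95 to 12 CPM in Lean rats and at 1.24 to 2.32 CPM in the 3 obese groups. The fat cell hormone Adipoq was at 2761 to 7043 CPM in all 20 libraries. Lean rats 1 and 2 carried skeletal muscle RNA, with Acta1 at 721 and 1232 CPM and at most 20.7 CPM in any other library, and Lean rat 2 had the highest summed gland epithelium markers, 131 CPM. Without these 2 rats the 6 DEGs of Obese versus Lean and the 6 of Food matched versus Lean were the same genes, and Cmpd 1 versus Lean lost Vcan.

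**Figure D1:**
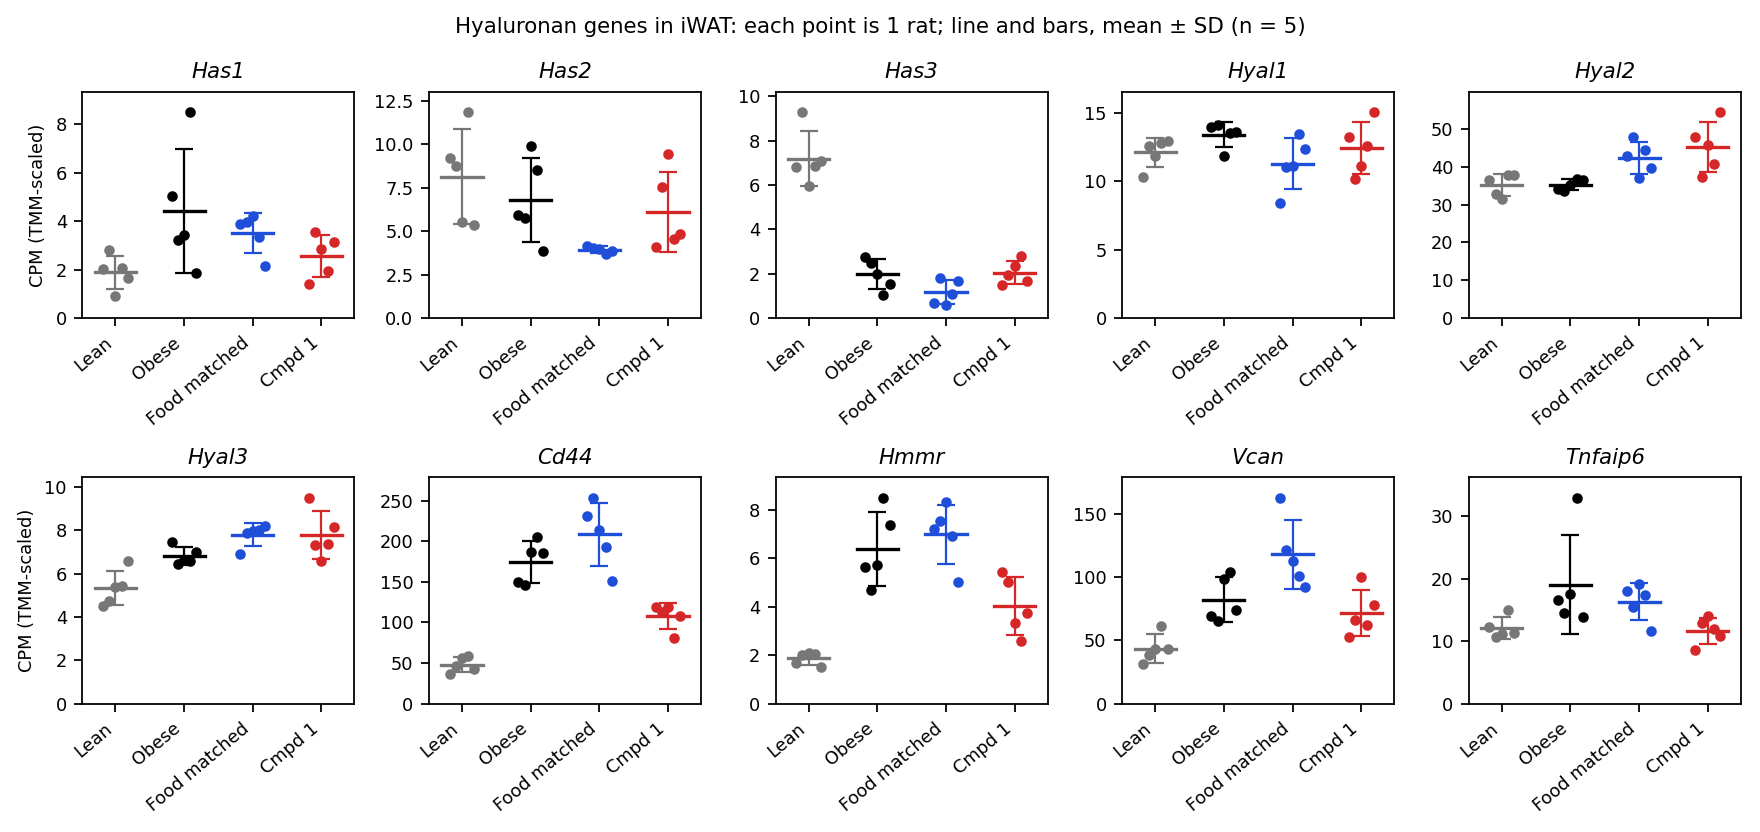
Level of the 10 hyaluronan genes in iWAT. Each panel is a gene, the vertical axis is CPM from 0, each point is 1 rat, and the line and bars give the mean and SD of 5 rats. Cd44 and Hmmr separate the Lean rats from every obese rat, and Has3 does so in the opposite direction.

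Per gene length (RPKM), Hyal2 was the highest of the 10 mRNAs in Lean rats at 17.7 ± 1.5 (SD, n = 5), followed by Cd44 at 12.1 ± 2.3 and Tnfaip6 at 8.87 ± 1.29. In Obese rats Cd44 led at 44.0 ± 6.5 RPKM and did not overlap Hyal2, the next in order, at 17.7 ± 0.7. Cd44 also led in Food matched rats, at 52.5 ± 9.8 RPKM. In Cmpd 1 rats its 27.2 ± 4.0 RPKM overlapped Hyal2 at 22.7 ± 3.3, so the first and second place were not separated there. Has3 was the lowest of the 10 in the 3 obese groups, at 0.168 to 0.294 RPKM, below the next gene in every rat of each group. In Lean rats the lowest place was not settled, since Has2, Has3, Has1 and Hmmr overlapped from each to the next between 1.95 and 0.819 RPKM.

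Has1, the synthase induced by inflammatory cytokines, was more abundant in Obese than in Lean iWAT. In Lean rats 1 to 5 it stood at 2.04, 2.80, 0.905, 2.05 and 1.65 CPM. In Obese rats 1 to 5 it stood at 5.04, 3.23, 3.44, 8.48 and 1.87 CPM. Obese rat 4 was the highest of all 20 rats, and Obese rat 5 lay within the Lean range, so the groups overlapped. The fold change was 2.33 (95% interval 1.41 to 3.83, log2 1.22 ± 0.34 SE, adjusted p = 0.0061), and without Obese rat 4 the log2 value was 0.84 (adjusted p = 0.035). Food matched rats had 3.88, 3.97, 4.20, 3.34 and 2.15 CPM, which was 1.85-fold above Lean (log2 0.89 ± 0.34, adjusted p = 0.035). That call was lost when any 1 of Lean rats 3 and 5 or Food matched rats 1, 2 and 3 was left out, with adjusted p between 0.064 and 0.085. Cmpd 1 rats had 1.42, 3.54, 2.83, 1.93 and 3.13 CPM, overlapping every other group. Their log2 difference from Food matched was -0.45, with a 95% interval of -1.16 to 0.26, which the data do not distinguish from 0 (adjusted p = 0.40).

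Has2, the synthase that connective tissue cells chiefly use and that makes very long chains, was lowest in the Food matched group. Lean rats 1 to 5 had 9.20, 8.75, 5.54, 11.8 and 5.34 CPM of Has2. Obese rats had 5.93, 5.78, 9.91, 8.5 and 3.83 CPM, and Food matched rats 4.16, 4.05, 3.96, 3.71 and 3.85 CPM. Every Food matched rat lay below every Lean rat, whereas Obese and Lean overlapped. Food matched rats were also nearly alike, with a coefficient of variation of 4.44% against 33.6% to 37.6% in the other groups. Has2 was 2.06-fold lower in Food matched than in Lean rats (log2 -1.04 ± 0.26, adjusted p = 0.0020), and was not a DEG in Obese versus Lean (log2 -0.26, 95% interval -0.79 to 0.27). Cmpd 1 rats had 4.11, 7.56, 9.41, 4.56 and 4.83 CPM, and all but rat 1 lay above the highest Food matched rat. That log2 difference of 0.63 (95% interval 0.085 to 1.17) did not pass the test with all groups in the model (adjusted p = 0.090) and passed when only these 2 groups were fitted (adjusted p = 0.036).

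Has3, the synthase whose chains are generally the shorter ones, fell the most of the 10 genes. In Lean rats 1 to 5 it was at 6.81, 9.27, 5.94, 6.85 and 7.06 CPM. In Obese rats it was at 2.73, 2.48, 2.01, 1.06 and 1.56 CPM. Every rat of the 3 obese groups lay below every Lean rat. Has3 was 3.65-fold lower in Obese than in Lean (log2 -1.87 ± 0.28, adjusted p = 1.5e-05), and 6.12-fold lower in Food matched than in Lean (log2 -2.61 ± 0.29, adjusted p = 2.4e-07). Food matched rats had 0.699, 1.80, 0.576, 1.11 and 1.67 CPM, and Cmpd 1 rats 1.5, 1.93, 2.33, 2.79 and 1.67 CPM. The Cmpd 1 level was 1.73-fold that of Food matched, with a 95% interval of 1.14 to 2.62, and just missed the test (adjusted p = 0.055). It passed without TMM scaling, in DESeq2 and when any 1 of Food matched rats 2 and 5, Obese rat 4 or Cmpd 1 rat 1 was left out, with adjusted p between 0.023 and 0.049. Has3 was 3.54-fold lower in Cmpd 1 than in Lean rats (log2 -1.83 ± 0.28, adjusted p = 3.9e-05). The last 143 bases of the Has3 row share positions with the gene Chtf8 on the other strand. Chtf8 stayed at 75.0 to 80.1 CPM in the 4 groups, and the strand setting of the read counting is not given in the sources used here.

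The makeup of the synthase mRNA therefore differed between Lean and obese fat while its sum did not separate the groups. Summed over the 3 synthases, Lean rats had 2.61 to 4.80 RPKM, Obese 2.03 to 6.24, Food matched 2.19 to 3.12 and Cmpd 1 1.88 to 3.94. In Lean rats Has2 made up 49.7% ± 7.1 (SD, n = 5) of this sum, Has3 27.5% ± 5.5 and Has1 22.8% ± 4.5. In Obese rats Has1 made up 50.2% ± 10.7, Has2 41.8% ± 9.2 and Has3 8.07% ± 3.58. The lowest Has1 share in an Obese rat, 38.2%, was above the highest in a Lean rat, 28.0%, and the Has3 shares were separated the other way. In Cmpd 1 rats Has1 made up 41.0% ± 7.1 and Has2 48.6% ± 6.6, and in Food matched rats 59.3% ± 7.3 and 34.4% ± 4.5.

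**Figure D2:**
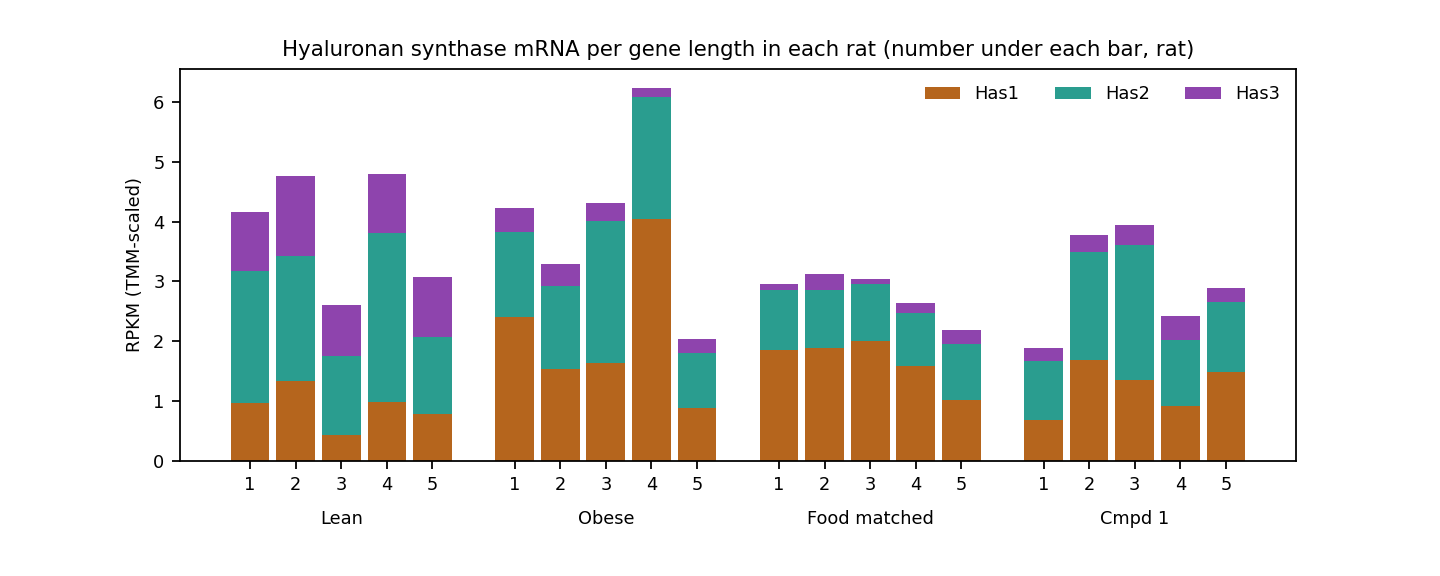
Hyaluronan synthase mRNA per gene length in each of the 20 rats. Bars stack the RPKM of Has1, Has2 and Has3 from 0, with the rat number below. Has3 makes up 20.5% to 33.0% of the bar in Lean rats and 2.45% to 16.6% in the rats of the other groups, and the tallest bar is Obese rat 4.

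Summed mast cell markers and lymphatic endothelial markers were, like Has3, higher in every Lean rat than in every Obese rat. The 6 mast cell markers summed to 155 to 212 CPM in Lean and 44.2 to 106 CPM in the obese groups, and the 6 lymphatic markers to 172 to 258 CPM in Lean and 60.5 to 244 CPM in the obese groups. Much of the lymphatic sum was Lyve1, which some resident macrophages also carry. In Lean rats Lyve1 had a mean of 105 CPM and the sum a mean of 210 CPM. The adipocyte markers Adipoq, Plin1, Cidec and Lipe were also each higher in every Lean rat than in every rat of the obese groups. Lep was higher in every Obese than in every Lean rat, and the summed adipocyte markers overlapped (23018 to 26880 CPM in Lean, 20004 to 23801 in Obese). For Has1 and Has2, the 6 mesothelial markers summed to 10.6 to 271 CPM in Lean and to 3.12 to 102 CPM in the other groups. Lean rats 1 and 2 had 271 and 109.5 CPM of these markers with 9.20 and 8.75 CPM of Has2. Obese rat 2 had 102 CPM of them with 5.78 CPM of Has2. Lean rat 4, the highest of all in Has2 at 11.8 CPM, had 21.8 CPM of these markers. Next in Has2 were Obese rat 3, at 9.91 CPM, and Cmpd 1 rat 3, at 9.41 CPM. Their mesothelial sums were 9.96 and 13.8 CPM. Lean rat 2 was also the highest Lean rat in Has1, at 2.80 CPM. Obese rat 4, the highest of all in Has1, had 5.45 CPM of these markers. The part of mast cells, lymphatic vessels and fat cells in the Has3 difference, and of mesothelial cells in the Has1 and Has2 levels, was not tested.

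Hyaluronidase mRNAs stayed within 1.5-fold in all 6 comparisons. Hyal2, the enzyme anchored to the cell surface that makes the first cuts, was at 35.3 ± 2.9 CPM in Lean and 35.3 ± 1.4 in Obese rats. In Food matched rats it was at 42.4 ± 4.2 CPM and in Cmpd 1 rats at 45.2 ± 6.6. The lowest Food matched and Cmpd 1 rats, at 37.1 and 37.4 CPM, lay just above the highest Obese rat, at 36.9 CPM. Hyal2 was 1.28-fold higher in Cmpd 1 than in Obese rats (log2 0.36 ± 0.09, adjusted p = 0.0098), which passes the test but not the fold limit of a DEG. Hyal3, the third gene of the cluster, was at 5.34 ± 0.80 CPM in Lean, 6.83 ± 0.41 in Obese, 7.80 ± 0.52 in Food matched and 7.79 ± 1.11 in Cmpd 1 rats. It was 1.28-fold higher in Obese than in Lean (adjusted p = 0.0073) and 1.46-fold higher in both Food matched (adjusted p = 0.00014) and Cmpd 1 (adjusted p = 0.00028). Without Lean rats 1 and 2 the first of these missed the test (adjusted p = 0.093). Its row shares 56.4% of its span with LOC100910872 on the same strand, so how reads were split between these rows is uncertain.

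Hyal1, the lysosomal enzyme that works on the fragments, passed the test in none of the 6 comparisons by edgeR. It was at 12.1 ± 1.1 CPM in Lean, 13.4 ± 0.9 in Obese, 11.3 ± 1.9 in Food matched and 12.4 ± 1.9 in Cmpd 1 rats. At an unadjusted p of 0.036 it was lower in Food matched than in Obese rats (log2 -0.25, 95% interval -0.48 to -0.017, adjusted p = 0.42). The 3 genes lie side by side on chromosome 8 of rn6, Hyal2 at chr8:116324040-116328978, Hyal1 at chr8:116332796-116335435 and Hyal3 at chr8:116336512-116342146, all on the plus strand. Of their summed RPKM, Hyal2 made up 57.9% to 63.5% in the group means. The sum ran from 28.7 ± 2.1 RPKM in Lean to 35.6 ± 4.7 in Cmpd 1 rats.

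Cd44, the main cell surface receptor of hyaluronan and an adhesion molecule of leukocytes, showed the clearest difference. Lean rats 1 to 5 had 36.4, 45.9, 56.0, 58.5 and 43.2 CPM of Cd44. Obese rats had 150.0, 146, 187, 205 and 186 CPM, and Food matched rats 231, 253, 214, 193 and 151 CPM. Cmpd 1 rats had 119, 113, 119, 80.7 and 108 CPM. The Cmpd 1 rats formed a middle group: each lay above every Lean rat and below every Obese and Food matched rat. Cd44 was 3.64-fold higher in Obese than in Lean (95% interval 2.94 to 4.51, log2 1.86 ± 0.15, adjusted p = 4.1e-09). It was 1.93-fold lower in Cmpd 1 than in Food matched (log2 -0.95 ± 0.14, adjusted p = 0.00021) and 1.62-fold lower than in Obese (log2 -0.70 ± 0.14, adjusted p = 0.0044). In Cmpd 1 it was still 2.25-fold above Lean (log2 1.17 ± 0.15, adjusted p = 3.2e-06). Food matched and Obese rats did not differ detectably in Cd44 (log2 0.25, 95% interval -0.044 to 0.55).

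Leukocyte RNA had the same order of groups as Cd44. Ptprc, the gene of the pan-leukocyte antigen CD45, was at 52.0 to 76.8 CPM in Lean, 184 to 235 in Obese, 191 to 269 in Food matched and 120 to 162 in Cmpd 1 rats. The ratio of Cd44 CPM to Ptprc CPM was 0.726 ± 0.034 in Lean, 0.814 ± 0.041 in Obese, 0.934 ± 0.130 in Food matched and 0.737 ± 0.046 in Cmpd 1 rats. It thus spanned 0.672 to 1.13 over all 20 rats, while Cd44 itself spanned 36.4 to 253 CPM. The ratio was lower in every Cmpd 1 rat (0.672 to 0.781) than in every Food matched rat (0.792 to 1.13). Between Lean (0.686 to 0.770) and Obese rats (0.769 to 0.874) its ranges just overlapped. The 12 macrophage markers summed to 2172 to 2928 CPM in Lean, 6251 to 8461 in Obese, 6893 to 12020 in Food matched and 4179 to 6162 in Cmpd 1 rats. Of these 12, 7 were DEGs upward in Obese versus Lean (beside 11.3% of genes tested) and 2 downward (beside 11%). Trem2, Cd68 and Itgam led upward (log2 2.38, 2.09 and 1.52), and Cd163 and C1qb were the 2 downward (log2 -1.40 and -0.71). Between Cmpd 1 and Food matched rats 7 were lower in Cmpd 1 (beside 4.65%) and none was higher. Mrc1, Itgam and Cd68 led these (log2 -0.93, -0.81 and -0.85). Ptprc was itself a DEG, log2 1.70 in Obese versus Lean and -0.61 in Cmpd 1 versus Food matched, though not in the latter without TMM scaling. How much of the Cd44 difference came with the number of leukocytes was not tested.

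Hmmr (RHAMM) is a hyaluronan-binding protein of the cell surface that also binds microtubules of the mitotic spindle, and its mRNA rises in dividing cells. In Lean rats 1 to 5 it was at 1.68, 2.02, 2.09, 2.05 and 1.51 CPM. In Obese rats it was at 5.66, 4.69, 5.72, 8.5 and 7.38 CPM, and in Food matched rats at 7.21, 7.54, 8.32, 6.92 and 5.04 CPM. Cmpd 1 rats had 5.46, 5.01, 3.35, 2.57 and 3.76 CPM. All Lean rats lay below all rats of the 3 obese groups, and the Cmpd 1 rats overlapped the Obese and the Food matched range. Hmmr was 3.41-fold higher in Obese than in Lean (95% interval 2.57 to 4.54, log2 1.77 ± 0.20, adjusted p = 3.0e-07) and 1.73-fold lower in Cmpd 1 than in Food matched (log2 -0.79 ± 0.19, adjusted p = 0.0051). Against Obese it was 1.57-fold lower in Cmpd 1 (log2 -0.66 ± 0.19, adjusted p = 0.027), a call that was lost when any 1 of Obese rats 4 and 5 or Cmpd 1 rats 3, 4 and 5 was left out, with adjusted p between 0.061 and 0.092. It remained 2.17-fold higher in Cmpd 1 than in Lean (log2 1.12 ± 0.20, adjusted p = 0.00014).

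Genes of mitosis had the same order of groups as Hmmr. All 17 listed mitotic genes in the table were DEGs upward in Obese versus Lean (beside 11.3% of genes tested). Birc5, Plk1 and Mki67 led these (log2 2.4, 2.61 and 2.63). In Cmpd 1 versus Food matched 16 of the 17 were lower (beside 4.65%), led by Top2a, Ccna2 and Prc1 (log2 -1.18, -1.14 and -1.11). These counts were 17 and 16 as well without TMM scaling, in DESeq2 and in limma-voom. Summed, they were at 47.7 to 73.1 CPM in Lean, 203 to 316 in Obese, 217 to 353 in Food matched and 91.8 to 203 in Cmpd 1 rats. Hmmr CPM was 3.25% ± 0.59 of this sum in Lean, 2.45% ± 0.32 in Obese, 2.45% ± 0.12 in Food matched and 2.83% ± 0.23 in Cmpd 1 rats. No cell type can be given to these transcripts from bulk tissue.

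**Figure D3:**
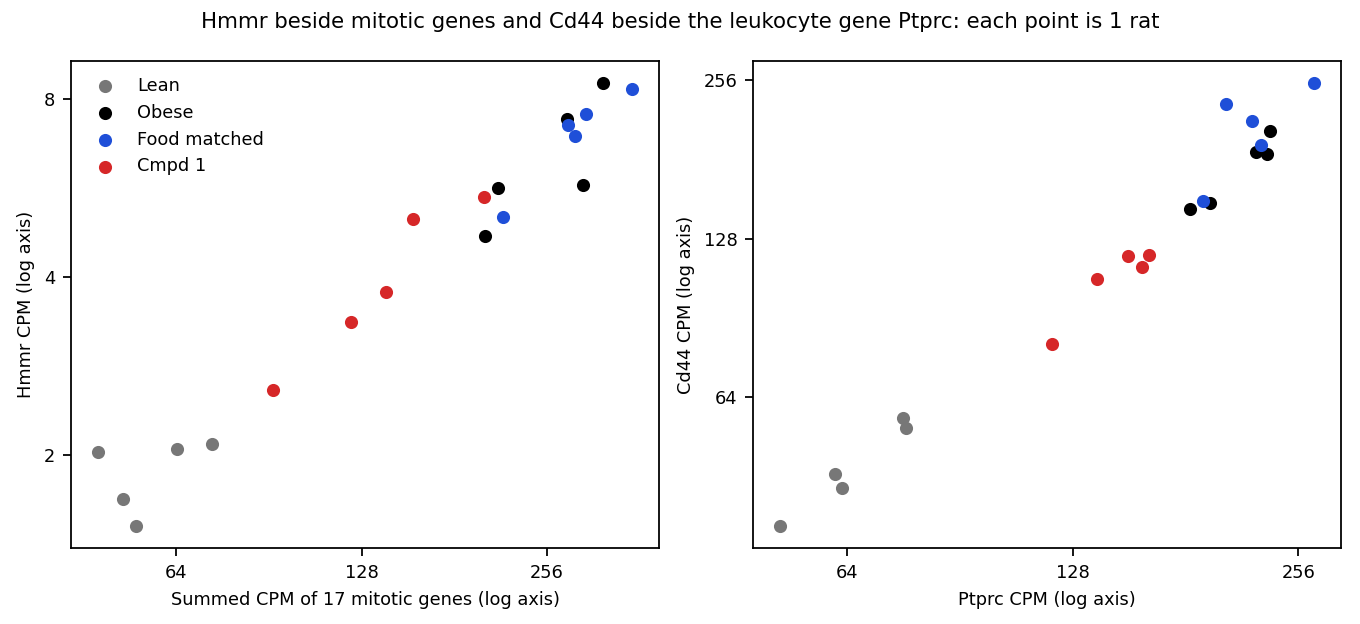
Hmmr CPM against the summed CPM of 17 mitotic genes (left) and Cd44 CPM against Ptprc CPM (right), on log axes. Each point is 1 rat, colored by group. The Lean rats lie at the lower left of both panels, and on the right the Cmpd 1 rats lie between them and the other obese rats.

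The sequence before the Hmmr start is shown because it holds letters known from promoters of genes that peak in late cell cycle, the cell cycle homology region TTTGAA and the CCAAT box. Both strands of the 250 bases before the RefSeq start (GRCr8, minus strand) were searched. The stretch of 30 bases with TTTGAA in capitals lies at chr10:25665244-25665273, and the match begins 46 bases before the start.
Hmmr TTTGAA: cgttggggtaaaTTTGAAttcaggcgagtt
Further upstream CCAAT occurred 4 times, each on the other strand and so read as ATTGG (capitals), beginning 228, 185, 152 and 76 bases before the start. These stretches lie at chr10:25665426-25665455, chr10:25665383-25665412, chr10:25665350-25665379 and chr10:25665274-25665303.
Hmmr CCAAT -228: acaccagacgtgATTGGatggacctgtttg
Hmmr CCAAT -185: ggacagtctcttATTGGgtaccagcttaaa
Hmmr CCAAT -152: acagacctcccgATTGGgcagcagtagaaa
Hmmr CCAAT -76: ttagactttctgATTGGctgacgctgggga
Of 33469 rat promoter windows of that length, 16.2% held TTTGAA, 34.0% held CCAAT, 0.565% held CCAAT at least 4 times and 0.0896% (30 windows) held both TTTGAA and 4 or more CCAAT. Of the 15 listed mitotic genes with a window, 6 held TTTGAA, 12 held CCAAT and 2 held both TTTGAA and 4 or more CCAAT. The letters TTTGAA also began at position -43 before the Cd44 start and -45 before the Has1 start, neither of them beside a CCAAT box. The limit of 4 boxes used above is Hmmr's own count, so the low shares of 0.565% and 0.0896% depend on that choice. With a limit of 2 boxes, both kinds of match occurred together in 532 windows (1.59%) and in 5 of the 15 mitotic genes. A match of letters is a description and shows no binding.

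Vcan, the large proteoglycan that carries hyaluronan in a provisional matrix, was higher in every obese group than in Lean. Lean rats 1 to 5 had 31.2, 38.8, 43.1, 61.4 and 43.4 CPM of Vcan. Obese rats had 68.9, 65.6, 98.8, 104 and 73.7 CPM, and Food matched rats 163, 122, 113, 101 and 92.5 CPM. Cmpd 1 rats had 52.7, 66.5, 99.7, 62.1 and 78.0 CPM, overlapping all other groups. Vcan was 1.88-fold higher in Obese than in Lean, with no overlap (log2 0.91 ± 0.19, adjusted p = 0.00052), and 2.71-fold higher in Food matched than in Lean (log2 1.44 ± 0.19, adjusted p = 2.8e-06). It was 1.64-fold lower in Cmpd 1 than in Food matched (log2 -0.72 ± 0.19, adjusted p = 0.0098). Without Food matched rat 1, the highest of all, that log2 value was -0.57 (adjusted p = 0.039), short of the fold limit. Cmpd 1 and Obese rats did not differ detectably in Vcan (log2 -0.19, 95% interval -0.59 to 0.20). Cmpd 1 was 1.65-fold above Lean (log2 0.72 ± 0.19, adjusted p = 0.0053), and log2 0.54 without Lean rats 1 and 2 (adjusted p = 0.055). Without Cmpd 1 rat 3 it was 0.57 (adjusted p = 0.021), also under the fold limit.

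Tnfaip6 was 1.57-fold higher in Obese than in Lean iWAT (log2 0.65 ± 0.20, adjusted p = 0.0097), a call that rested on 1 rat. Obese rats 1 to 5 had 16.5, 14.5, 17.5, 32.9 and 13.9 CPM, and Lean rats 12.3, 10.6, 11.2, 15.0 and 11.3 CPM. Obese rat 4, also the highest in Has1 and Hmmr among Obese rats, stood far above the next rat. Without it the log2 difference was 0.37 (adjusted p = 0.046), under the fold limit, and limma-voom on all rats gave 0.58 (adjusted p = 0.019), also just under it. Food matched rats had 18, 15.5, 19.2, 17.4 and 11.6 CPM and Cmpd 1 rats 8.56, 12.9, 14.1, 12 and 10.8 CPM. All but 1 Food matched rat lay above all Cmpd 1 rats, yet the log2 difference of -0.49 (95% interval -0.90 to -0.073) did not pass the test (adjusted p = 0.085). It became a DEG without Food matched rat 5 (log2 -0.59, adjusted p = 0.038). Tnfaip6 was 1.63-fold lower in Cmpd 1 than in Obese rats (log2 -0.71 ± 0.20, adjusted p = 0.023), and this call was lost without Obese rat 4 (adjusted p = 0.080) and without any 1 of Cmpd 1 rats 1, 4 and 5 (adjusted p between 0.052 and 0.054). Cmpd 1 and Lean rats did not differ detectably (log2 -0.054, 95% interval -0.47 to 0.36).

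The 250 bases before the Tnfaip6 start are shown because the gene is known as a target of inflammatory signals. They lie at chr3:56911148-56911397 of GRCr8 on the plus strand, and capitals mark the match to TGANTCA, the letters of AP-1, and the matches to CCAAT on either strand.
Tnfaip6: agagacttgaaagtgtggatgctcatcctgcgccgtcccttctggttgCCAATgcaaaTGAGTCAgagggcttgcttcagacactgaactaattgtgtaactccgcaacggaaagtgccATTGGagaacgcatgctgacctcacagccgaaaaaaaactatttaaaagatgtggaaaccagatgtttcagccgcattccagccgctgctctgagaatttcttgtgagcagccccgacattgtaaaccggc
TGANTCA begins 192 bases before the start and occurred in 6.34% of all promoter windows. No other of the 8 hyaluronan genes with a RefSeq window held these letters.

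The other comparisons set the obese groups against each other and the Food matched and Cmpd 1 groups against Lean, and they share rats with those above. In Food matched versus Obese none of the 10 genes was a DEG, and neither was any gene tested (0%) by edgeR; the smallest adjusted p of any gene was 0.065. An unadjusted p under 0.05 was reached by 5 of the 10 genes and by 1887 of the 17653 genes tested, and none passed after adjustment. DESeq2 and limma-voom also called 0 of the 10. Those 5 were Has2 (log2 -0.78), Has3 (log2 -0.75) and Hyal1, lower in Food matched, and Vcan (log2 0.52) and Hyal2 (log2 0.26), higher. Against Obese, 3 of the 10 were DEGs in Cmpd 1, all lower (Cd44, Hmmr and Tnfaip6), where 3.53% of genes tested were DEGs and 2.8% were lower. At any fold 4 of the 10 passed in this comparison, beside 14% of genes tested. Against Lean, 4 of the 10 were DEGs in Cmpd 1 (beside 16.6% of genes tested), Cd44, Hmmr and Vcan higher (beside 7.47%) and Has3 lower (beside 9.11%), and 6 passed at any fold (beside 39%). In Food matched versus Lean 6 of the 10 were DEGs (beside 25.3%), Has1, Cd44, Hmmr and Vcan higher (beside 12.5%) and Has2 and Has3 lower (beside 12.8%), and 8 passed at any fold (beside 52.2%).

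Groups did not overlap in 4 of the 10 genes in Obese versus Lean, beside 33.6% of all genes tested, and in 1 of the 10 in Cmpd 1 versus Food matched, beside 14.9%. In Cmpd 1 versus Obese this held for 2 of the 10 (Cd44 and Hyal2), beside 10.8%, and in Food matched versus Obese for 1 (Hyal2), beside 2.04%. In Cmpd 1 versus Lean it held for 4 of the 10, beside 24.6%, and in Food matched versus Lean for 6, beside 36.6%. The medians of the 10 log2 fold changes in Cmpd 1 versus Lean and Food matched versus Lean were 0.40 and 0.49, against 0.0054 and -0.018 over all genes tested. In Food matched versus Obese and Cmpd 1 versus Obese they were -0.043 and -0.17, against -0.00056 and -0.00063. These shares are given as a scale; the 10 genes are few and were chosen with results of these data known.

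**Figure D4:**
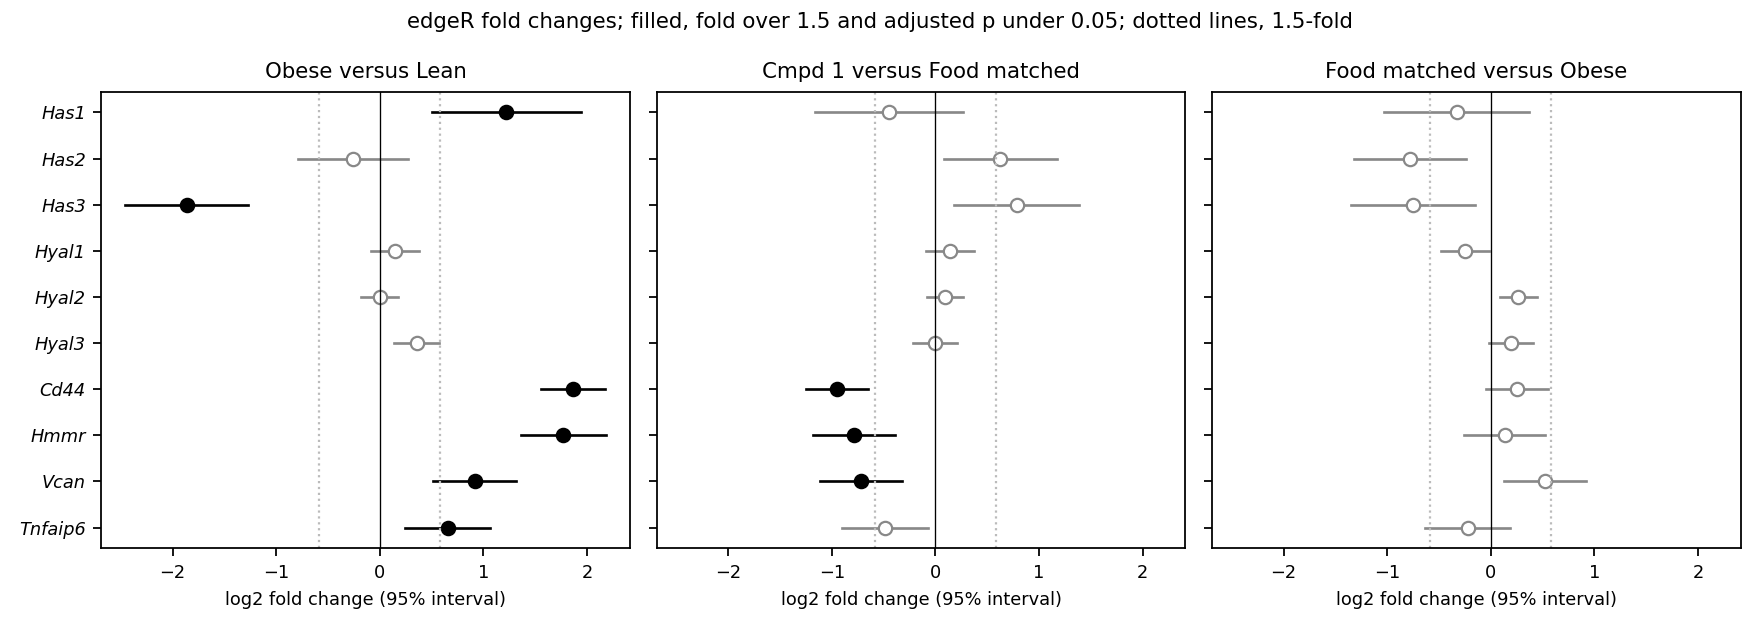
Log2 fold changes of the 10 hyaluronan genes in 3 comparisons, on 1 horizontal scale. Points are edgeR estimates, lines the 95% intervals, filled points DEGs and dotted lines the 1.5-fold limits. Has3 lies at -1.87 and Cd44 at 1.86 in Obese versus Lean, the 3 filled points of Cmpd 1 versus Food matched are Cd44, Hmmr and Vcan, and Food matched versus Obese has none.

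Of 19 genes of UDP-sugar supply, the pathway that makes the precursors of hyaluronan, 1 was a DEG upward in Obese versus Lean, Amdhd2 (log2 1.19 ± 0.11, adjusted p = 3.8e-08), which removes the acetyl group from N-acetylglucosamine phosphate. The 2 downward were Pgm1 (log2 -0.84 ± 0.13), a phosphoglucomutase, and Gfpt2 (log2 -1.13 ± 0.25, from a mean of 136 to 62.3 CPM), an isoform of the enzyme that opens the hexosamine pathway. Of all genes tested, 11.3% were DEGs upward and 11% downward. At any fold 6 of the 19 passed the test upward and 3 downward, beside 48.2% of all genes tested. None of the 19 was a DEG in Cmpd 1 versus Food matched. There 4 of the 19 passed the test at a smaller fold, beside 22.8% of genes tested at any fold. Without Lean rats 1 and 2 only 1 gene was lower in Obese. The list's median log2 fold changes were 0.041 and -0.078, beside -0.014 and 0.0058 over all genes tested.

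Of 5 other hyaluronan-degrading enzymes that passed the filter, 1 was a DEG upward in Obese versus Lean (beside 11.3% of genes tested). It was the lysosomal beta-glucuronidase Gusb, at 50 ± 2.3 CPM in Lean and 81.8 ± 6.9 in Obese rats (log2 0.71 ± 0.06, adjusted p = 1.2e-08). In Food matched rats Gusb was at 91.2 ± 7.8 CPM and in Cmpd 1 rats at 74.8 ± 3.1, a difference that passed the test at less than 1.5-fold (log2 -0.29, adjusted p = 0.0024). Tmem2, a cell surface hyaluronidase, was also higher in Obese than in Lean (log2 0.22, adjusted p = 0.018) and lower in Cmpd 1 than in Food matched (log2 -0.36, adjusted p = 0.0017), under the fold limit. Cemip, a secreted factor of hyaluronan breakdown, was at or below 0.198 CPM in every group mean.

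Other hyaluronan receptors did not move with Cd44 as a group. Of 8 tested, 1 was higher (beside 11.3% of genes tested) and 3 were lower (beside 11%) in Obese versus Lean. Layn (layilin), a small lectin-like receptor, rose from 15.7 ± 1.6 to 28.0 ± 2.5 CPM (log2 0.84 ± 0.10, adjusted p = 1.2e-06) and was lower in Cmpd 1 than in Food matched (20.9 ± 2.9 and 35.7 ± 5.1 CPM, log2 -0.77 ± 0.10, adjusted p = 8.4e-05). The scavenger receptor Stab1 (log2 -0.71 ± 0.16) and Lyve1 (log2 -1.14 ± 0.31), receptors of lymphatic and sinusoidal vessels and of some resident macrophages, were lower in Obese than in Lean. Susd5 was lower too (log2 -1.75 ± 0.58), but at low levels, with means of 0.689 CPM in Lean and 0.201 in Obese rats. Without Lean rats 1 and 2 the number lower was 2 in place of 3. Lyve1 ranged from 39.2 to 170 CPM among Food matched rats, and neither Stab1 nor Lyve1 was a DEG in Cmpd 1 versus Food matched.

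Not all of the 17 other matrix proteins tested bind hyaluronan themselves. Of them, 6 were higher (beside 11.3% of genes tested) and 5 lower (beside 11%) in Obese versus Lean. Ncan (neurocan), at a mean of 0.0842 CPM in Lean and 2.62 in Obese rats, Tnc and Bcan (brevican) led by adjusted p, with log2 fold changes of 4.94, 2.07 and 2.30. Tnc, tenascin-C of wound matrix, was at 11.2 ± 2.3 CPM in Lean, 47.0 ± 9.4 in Obese, 84.1 ± 24.1 in Food matched and 21.7 ± 7.7 in Cmpd 1 rats. Between Cmpd 1 and Food matched rats 4 were lower in Cmpd 1 (beside 4.65% of genes tested) and 1 was higher. Tnc (log2 -1.95 ± 0.23, adjusted p = 3.5e-05) and Prg4 (lubricin, log2 -1.22 ± 0.25) were among the lower ones. Itih5, of the inter-alpha-trypsin inhibitor family whose heavy chains bind hyaluronan, was the one higher, at 242 ± 32 CPM in Food matched and 382 ± 44 in Cmpd 1 rats (log2 0.66 ± 0.09, adjusted p = 7.5e-05). The list's median log2 fold changes were -0.21 and -0.31. Without Lean rats 1 and 2 the number lower in Obese was 3 in place of 5.

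Of 18 partners, ligands and network genes of CD44, 9 were higher (beside 11.3% of genes tested) and 1 lower (beside 11%) in Obese versus Lean. In Cmpd 1 versus Food matched 6 were lower (beside 4.65%). Not all of the 18 bind CD44. The list includes Il1rn, Lgals3 and Mmp12, through whose changes in these same rats the study's causal network analysis identified CD44. Mmp12 (log2 5.92 ± 0.41), Cd74 (log2 1.33 ± 0.10) and Il1rn (log2 3.03 ± 0.26) had the smallest adjusted p in Obese versus Lean. These are a macrophage elastase, the invariant chain that pairs with CD44 as a cytokine receptor, and the interleukin-1 receptor antagonist. For Cmpd 1 versus Food matched they were Cd74 (log2 -0.59 ± 0.10), Mmp12 (log2 -1.87 ± 0.31) and Lgals3 (galectin-3, log2 -0.89 ± 0.16). The list was drawn up with earlier results of these libraries known, so its direction is no independent evidence. The 1 lower, the ankyrin Ank1, was no longer a DEG without Lean rats 1 and 2. Of 7 proteases that cut versican, 1 was higher and 1 lower in Obese versus Lean, beside 11.3% and 11% of genes tested. The higher was Adamts1 (log2 0.74 ± 0.16). The lower was Adamts20 (log2 -3.69 ± 0.69), at a mean of 0.276 CPM in Lean rats. Adamts4 was lower in Cmpd 1 than in Food matched (log2 -0.72 ± 0.17, adjusted p = 0.0039).

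Among 16 regulators of the synthases tested, 2 were higher (beside 11.3% of genes tested) and 3 lower (beside 11%) in Obese versus Lean. For so few genes these counts lie near those shares. Tgfb1, which raises Has1 and Has2 in fibroblasts, was higher (log2 1.44 ± 0.10, adjusted p = 1.0e-09), as was the cytokine Il6 (log2 2.4 ± 0.47, from a mean of 0.263 to 1.40 CPM). Fgf2 (log2 -1.24 ± 0.18) was the most significant of those lower. None of the 16 was a DEG in Cmpd 1 versus Food matched. There 4 passed the test at a smaller fold, beside 22.8% of genes tested at any fold. The part of these regulators in the synthase levels was not tested.

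For the 7 hyaluronan genes that were a DEG in any comparison, so not for Hyal1, Hyal2 and Hyal3, the genes whose centered log2 CPM stayed closest over the 20 rats were searched among 12025 genes with a symbol and a mean of at least 1 CPM. For Cd44 the closest were Sla, B4galt6 and Tbxas1, at a root mean square difference of 0.071 to 0.10 log2 units, while Cd44 itself varied by 0.85 around its mean. For Hmmr they were Sqle, E2f2 and Mastl (0.16 to 0.18), and for Vcan Ccdc109b, Lgmn and Mrc1 (0.22 to 0.24). For Has3 they were Sema5a, Ccl24 and Efhd1 (0.29 to 0.36, beside 1.08 for Has3 around its own mean). The closest to Has1 were Socs3, Bco2 and Nr4a3 (0.34 to 0.44), to Has2 Ackr4, Ecm1 and Marveld2 (0.34 to 0.38) and to Tnfaip6 Gbp2, Zfp36 and Usp18 (0.24 to 0.26). For these last 3 genes the likeness was loose, since they varied by only 0.41 to 0.69 around their own means.

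Other cell type markers were counted in the same 2 comparisons. As a scale for these and the vessel lists below, 11.3% of genes tested were higher and 11% lower in Obese versus Lean. In Cmpd 1 versus Food matched 4.65% were lower, and 6.19% were DEGs in either direction. In Obese versus Lean, 3 of 6 T cell markers were higher (Cd4, Lck and Cd3e), and Cd4, which rat macrophages also carry, was lower in Cmpd 1 versus Food matched, though not without TMM scaling. All 5 B cell markers were under 1 CPM in every group mean with none a DEG, the highest being Cd79b and Cd79a. Of 6 mast cell markers 5 were lower in Obese, led by Cpa3, Cma1 and Ms4a2 (log2 -1.40, -1.41 and -1.31). Of 8 adipocyte markers 4 were lower, led by Cidec, Lipe and Adipoq (log2 -0.61, -0.81 and -0.76), and 1, Lep, higher (not a DEG without Lean rats 1 and 2). The row of the lipase Pnpla2 was the 1 higher in Cmpd 1 than in Food matched, at means of 0.694 and 0.360 CPM. It was under 1 CPM in every group mean, while Lipe was at 849 CPM in Food matched rats, so that call rests on few reads. Of 10 progenitor and fibroblast markers 4 were higher, led by Thy1, Col3a1 and Col1a1 (log2 2.25, 0.97 and 1.09), and 4 were lower, Dpp4, Pi16, Cd34 and Dcn (log2 -2.01, -1.23, -0.94 and -0.65). Of the same list, Lum and Thy1 were lower in Cmpd 1 versus Food matched (log2 -1.08 and -0.60).

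Of the vessel lists, 2 of 5 endothelial markers (Tek and Cldn5, both log2 -0.80) and 4 of 6 lymphatic markers were lower in Obese, the latter led by Pdpn, Ccl21 and Prox1 (log2 -1.92, -5.91 and -3.74). Of 5 mural markers Myh11 was lower in Obese (log2 -0.70), and Cspg4 was higher in Cmpd 1 than in Food matched (log2 0.59). The mesothelial marker Wt1 (log2 -1.75), all 7 skeletal muscle markers (led by Tnnt3, Myl1 and Pvalb, log2 -4.74 to -7.58) and 3 of 4 gland epithelium markers (Krt8, Epcam and Krt18, log2 -1.57 to -4.49) were lower in Obese. Without Lean rats 1 and 2 the numbers of mesothelial, mural and muscle markers lower in Obese were 0, and limma-voom also called 0 of the muscle markers. The gland marker Scgb2a1 was higher in Obese (log2 4.72), a call lost without Obese rat 4, without Lean rats 1 and 2 and in DESeq2 and limma-voom.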

How the data were processed

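Per the labels, iWAT RNA was made into libraries with a TruSeq stranded mRNA kit. The authors mapped reads to the rat genome (rn6, by the study's methods) with STAR and tallied reads with a single mapping position by featureCounts for each gene, and deposited 1 table of raw counts with gene length and position; all 20 sample columns were used. The submitters' processing notes name STAR 2.5.2, Subread 1.5.1 and a human build, while the methods name the rat build and an earlier STAR version. Whether counting used strand is not given in the sources used here. Groups were taken from sample titles; a label that calls the Food matched rats lean goes against their titles and the study's text.

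From the counts, TMM-scaled CPM, RPKM (CPM per kilobase of deposited gene length) and tests were computed in R 4.3.3 with edgeR 4.0.16. A filter dropped the 14892 genes whose count was 0 in at least 10 of 20 libraries, leaving 17653. 1 quasi-likelihood model of the 4 groups gave 6 comparisons, with Benjamini-Hochberg adjustment over all genes tested and intervals from its t distribution on the log2 scale. Likeness used log2 CPM with a prior count of 2. Alternatives were scaling by library size alone, DESeq2 1.42.0, limma-voom 3.58.1, other filters, fewer groups or rats, and a replicate block. Rat numbers did not pair samples. The fits were first tested on simulated data.

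The 10 genes and 21 other lists were chosen with earlier results of these data known. The lists cover hyaluronan enzymes, receptors, matrix proteins, UDP-sugar supply, CD44 partners and network genes, versican cleavage, synthase regulators, mitosis and cell type markers. Of 203 listed genes 198 were found by symbol. Genes named were all 10, from each list up to 3 DEGs of smallest adjusted p per comparison, and any others singled out after their values were seen. Upstream sequences were RefSeq's (GRCr8), matched by symbol for 8 of the 10 genes, and none was printed for Has2 and Has3.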

Additional observations from a re-analysis of the deposited data

Results flagged for a closer look

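Over the 40 gene and group combinations examined (10 genes in 4 groups of 5 rats), 3 had a rat far from the others of its group by Dixon's criterion, where chance gives about 1 in 20. Tnfaip6 in Obese rat 4 was at 32.9 CPM, and the other Obese rats at 13.9 to 17.5 CPM. That rat also had the highest Has1, Cd44, Hmmr and Vcan among Obese rats and a summed gland epithelium level of 47.5 CPM beside 8.23 to 15.9 CPM in the other Obese rats; the part of this in its Tnfaip6 level was not tested. Hyal1 in Obese rat 3 was at 11.8 CPM, below the 13.5 to 14.1 CPM of the other Obese rats. Hyal3 in Food matched rat 1 was at 6.90 CPM, below the 7.89 to 8.22 CPM of the other Food matched rats.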

How the results depend on the processing

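The number of the 10 genes called in Obese versus Lean was 6 and stayed between 5 and 6 when 1 rat at a time was left out. In Cmpd 1 versus Food matched it was 3 and ran from 2 to 5, the 5 without Food matched rat 5, which adds Has3 and Tnfaip6. In Cmpd 1 versus Obese it was 3 and ran from 1 to 3, with Cd44 alone left without Obese rat 4, Cmpd 1 rat 4 or Cmpd 1 rat 5. A replicate block gave the same counts, 6, 3, 0, 3, 4 and 6, over the 6 comparisons, but same-numbered rats deviated together (correlation over 0.1) in only 1 of 5 pairs in Obese versus Lean and in none elsewhere. Over 450 log2 fold changes under settings other than leaving out 1 rat, 437 kept direction and call, 2 lost the call, 4 gained it and 7 changed sign. All 29 sign changes, including those with 1 rat left out, were of values not called with all rats; the cause was not tested. Hyal2 in Obese versus Lean was -0.015 with library size alone, -0.00098 in DESeq2 and -0.017 without Lean rats 1 and 2, and -0.029 to 0.034 with 1 rat left out. Hyal3 in Cmpd 1 versus Food matched was 0.034 with library size alone, 0.0054 in limma-voom and 0.0038 with only these groups, and -0.083 to 0.054 with 1 rat left out. Hyal1 in Cmpd 1 versus Lean was -0.014 without Lean rats 1 and 2, and -0.041 to 0.10 with 1 rat left out. With 1 rat left out, Has1 ran from -0.52 to 0.047 and Tnfaip6 from -0.31 to 0.068 in Food matched versus Obese, Has2 from -0.36 to 0.023 and Has3 from -0.11 to 0.19 in Cmpd 1 versus Obese, and Tnfaip6 from -0.13 to 0.041 in Cmpd 1 versus Lean. Hyal3 passed the fold limit in Cmpd 1 versus Lean with library size alone (0.59) and without Lean rat 5 or Cmpd 1 rat 3, and in Food matched versus Lean without Lean rat 5 or Food matched rat 1. The counts of the other lists under other settings were chosen after seeing the data. Among the 10 genes, Has1 had the widest intervals and Has3 the next, and both had under 50 reads in their lowest library.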
